A study of Homo sapiens with 6 samples.

Results

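Transcript levels of 33 genes for the synthesis of cholesterol and fatty acids were compared between A2780 ovarian cancer cells exposed to vehicle and to TH-588. The genes were chosen by a list of names: 7 mevalonate pathway enzymes, 11 enzymes of the sterol branch, 7 regulators and transport proteins, and 8 enzymes that make or modify fatty acids. They are 33 of the 58336 genes in the count table, and all 33 were among the 15844 genes with enough reads to be tested. A2780 is an established human ovarian cancer line, and TH-588 inhibits MTH1, a Nudix hydrolase that removes oxidised nucleotides, and also disturbs mitosis. The vehicle group was 3 cultures given DMSO, and the treated group was 3 cultures given 6 µM TH-588 for 48 h, each from an independent experiment. Both groups shared the same medium, RPMI with 10% heat-inactivated serum and 10 µg/mL insulin, so serum lipoproteins and insulin were present in every culture. Polyadenylated RNA of whole cultures was sequenced. In such bulk RNA, fewer cells in a given state and less RNA per cell cannot be told apart, and 1 line stands for the disease.

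Cholesterol is built from acetyl-CoA through mevalonate, farnesyl diphosphate, squalene and lanosterol, and fatty acids are built from acetyl-CoA through malonyl-CoA. The genes of both pathways are known targets of the sterol regulatory element binding proteins (SREBPs), membrane-bound transcription factors encoded by SREBF1 and SREBF2. When sterols are scarce, the escort protein SCAP carries SREBPs from the endoplasmic reticulum to the Golgi, where proteases release the active factor, whereas in sterol-rich cells INSIG1 and INSIG2 hold SCAP back. SREBF2 products act mainly on cholesterol genes, and SREBF1 products mainly on fatty acid genes.

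Libraries held between 28537837 counts (TH-588 replicate A) and 99074175 counts (TH-588 replicate B), so that 3 counts, taken as the detection floor, were worth 0.0276 to 0.112 CPM (counts scaled to a common library total). The small nucleolar RNA SNORD3A took 7.68% to 10.6% of the counts in DMSO libraries and 11.2% to 21.9% in TH-588 libraries, the highest share in the shallowest library. With the 10 most abundant genes left out, SNORD3A among them, 18 of the 33 members were called higher and 2 lower. The counts were the same in the fit with no gene left out. In the fit without these genes, 3862 of all 15983 genes tested were called higher and 3994 lower. The median log2 fold change of the members was 0.2944 in place of 0.2932. Levels are given as CPM of library totals adjusted by the trimmed mean of M values (TMM), or, where genes are compared with each other, as RPKM, the same value per kilobase of exon. Of 15 ovarian epithelial markers, 3 had enough reads to be tested (EPCAM, KRT18 and MUC1). All 3 were higher after TH-588, against 24.2% higher and 25.3% lower of all genes tested. Their levels were low, with DMSO means of 0.64, 3.56 and 2.82 CPM and TH-588 means of 4.74, 6.54 and 4.09 CPM. SOX17 and EMX2 had no count in any library, and PAX8 had none in 5 of 6. The 15 markers summed to 6.46 to 7.66 CPM in DMSO libraries and 15.5 to 16.3 CPM in TH-588 libraries. The part of these marker changes in the results below was not tested. Of 11 immune, endothelial and stromal markers, 1 rose (COL3A1) and none fell among the 5 tested. The list summed to 1588 to 1916 CPM in DMSO libraries and 1875 to 2615 CPM in TH-588 libraries. Most of this was COL3A1, at 1733 ± 164.5 and 2279 ± 378.2 CPM, and the COL3A1 groups overlapped.

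Most cholesterol synthesis transcripts rose after TH-588. Of 8 fatty acid synthesis transcripts, 2 rose (25%) and 1 fell (12.5%), against 24.2% higher and 25.3% lower of all genes tested. By edgeR's quasi-likelihood test with Benjamini-Hochberg adjustment over all 15844 genes, 18 of 33 members (54.5%) passed an adjusted p under 0.05 upwards and 2 (6.06%) passed it downwards. Across all genes tested, 24.2% were higher and 25.3% were lower, 49.6% in all, so that a call was common in these cells. Of all calls 48.9% were higher, or 60.4% with library totals not adjusted by TMM, where the members held 18 calls higher and 1 lower. The median log2 fold change of the members was 0.29, against 0.02 over all genes tested, and the range was -0.42 to 1.34. TM7SF2, SREBF2, HSD17B7 and HMGCS1 were more than 2-fold higher, which is 12.1% of the members and compares with 9.75% of all genes tested. No member was more than 2-fold lower, a change seen in 4.76% of all genes. The 3 TH-588 libraries lay wholly above or wholly below the 3 DMSO libraries for 24 members (72.7%), against 57.7% of all genes tested. Most genes given per library below were selected partly for having no overlap. Its mention for them is a description and adds nothing to the calls. The number of members called stayed between 17 and 21 under each alternative scaling, filter, tool and threshold and without each library in turn.

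**Figure D1:**
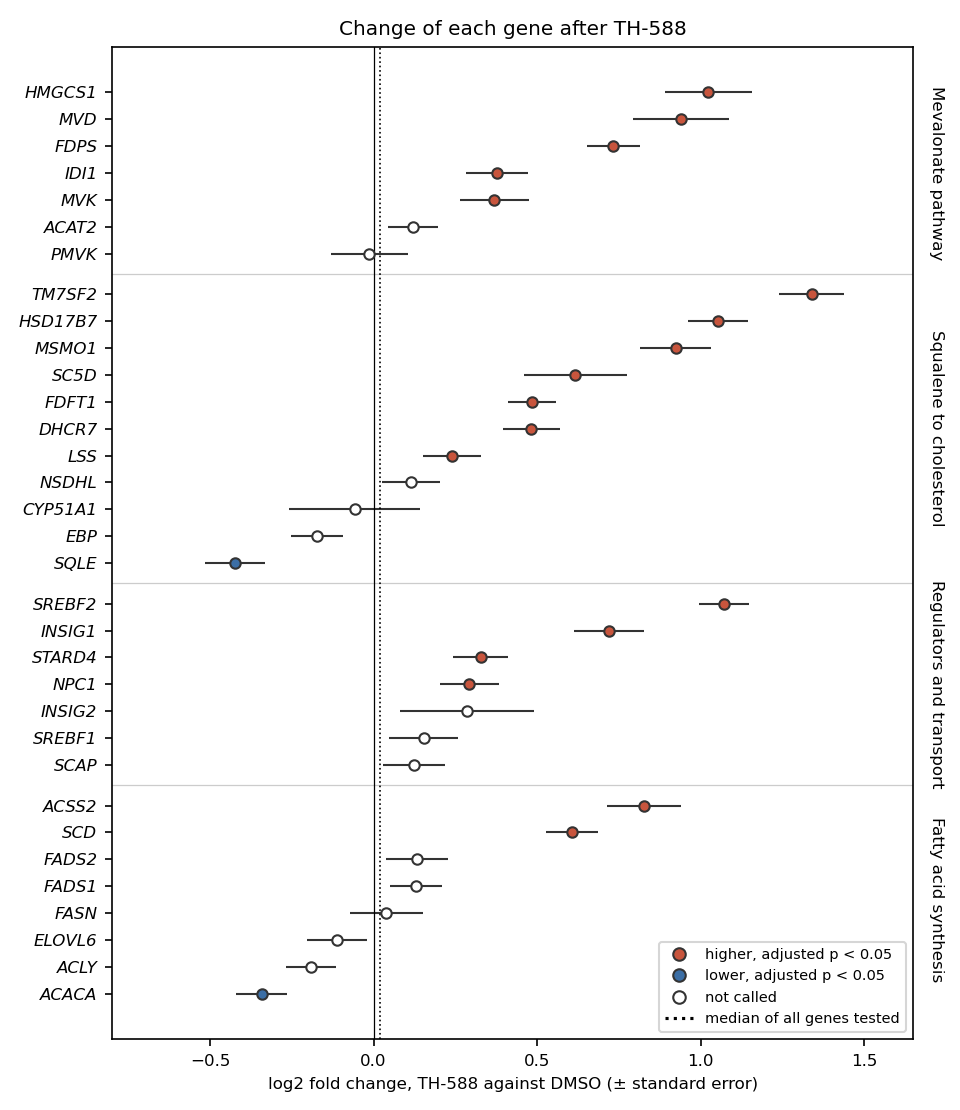
Log2 fold change of each of the 33 genes, TH-588 against DMSO (x axis, log2 scale), with the standard error as a bar, grouped by role; red points were called higher, blue points lower and white points were not called at an adjusted p under 0.05, and the dotted line is the median of all genes tested. Red points fill most of the mevalonate and sterol groups, and the 2 blue points are SQLE and ACACA.

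Among the 7 regulators and transport proteins, 4 rose (57.1%) and none fell, against 24.2% higher and 25.3% lower of all genes tested. SREBF2 (ENSG00000198911, chr22:41833079-41907308, GRCh38) stood at 220.6, 212.9 and 208.4 CPM in the DMSO libraries (A, B, C) and at 430.1, 466.4 and 452.4 CPM in the TH-588 libraries in the same order. All 3 TH-588 values lay above all 3 DMSO values, and the groups were separated by far more than the spread within either of them. The DMSO mean was 214.0 ± 6.18 CPM and the TH-588 mean 449.7 ± 18.3 CPM (SD, 3 libraries each), and the log2 fold change was 1.07 (SE 0.08, edgeR adjusted p = 4.22e-07). SREBF1 (ENSG00000072310, chr17:17810399-17837002), the partner gene for fatty acid synthesis, read 155.5, 132.5 and 133.9 CPM in DMSO and 143.7, 181.0 and 144.3 CPM in TH-588. These groups overlapped, and the log2 fold change of 0.15 did not pass the test (95% interval -0.05 to 0.36, edgeR adjusted p = 0.251).

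INSIG1 (ENSG00000186480, chr7:155297776-155310235), which retains SCAP and is itself a classic SREBP target, read 10.6, 12.4 and 10.8 CPM in DMSO and 19.0, 17.8 and 18.9 CPM in TH-588. Every TH-588 library was higher than every DMSO library, and the log2 fold change was 0.72 (SE 0.11, edgeR adjusted p = 0.000129). INSIG2, the paralogue that is not governed in the same way by SREBPs, read 1.91, 3.08 and 2.61 CPM in DMSO and 3.21, 2.54 and 3.55 CPM in TH-588. The INSIG2 groups overlapped, and its log2 fold change of 0.29 (95% interval -0.12 to 0.69, edgeR adjusted p = 0.274) did not pass the test. SCAP (ENSG00000114650), the escort protein, read 123.2, 111.7 and 103.5 CPM in DMSO and 118.5, 136.9 and 113.3 CPM in TH-588. Its groups overlapped as well, with a log2 fold change of 0.12 (95% interval -0.06 to 0.31, edgeR adjusted p = 0.306).

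Both transport proteins in the set rose by small amounts. STARD4, a soluble carrier that moves sterol between membranes, read 44.8, 51.7 and 50.8 CPM in DMSO and 64.8, 59.8 and 60.3 CPM in TH-588. Its groups did not overlap (log2 fold change 0.33, SE 0.08, edgeR adjusted p = 0.00629). NPC1, which exports cholesterol from lysosomes, read 161.9, 166.0 and 171.0 CPM in DMSO and 230.1, 192.8 and 188.8 CPM in TH-588. TH-588 replicate A was the highest of the 6, and the groups did not overlap. The NPC1 log2 fold change was 0.29 (SE 0.09, edgeR adjusted p = 0.0163), and the call was lost without DMSO replicate B (0.29, adjusted p = 0.0563). The summed level of the 7 regulators and transport proteins was 680.9 to 718.6 CPM in DMSO libraries and 981.5 to 1057 CPM in TH-588 libraries. Most of this rise was SREBF2, with means of 214.0 CPM in DMSO and 449.7 CPM in TH-588.

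**Figure D2:**
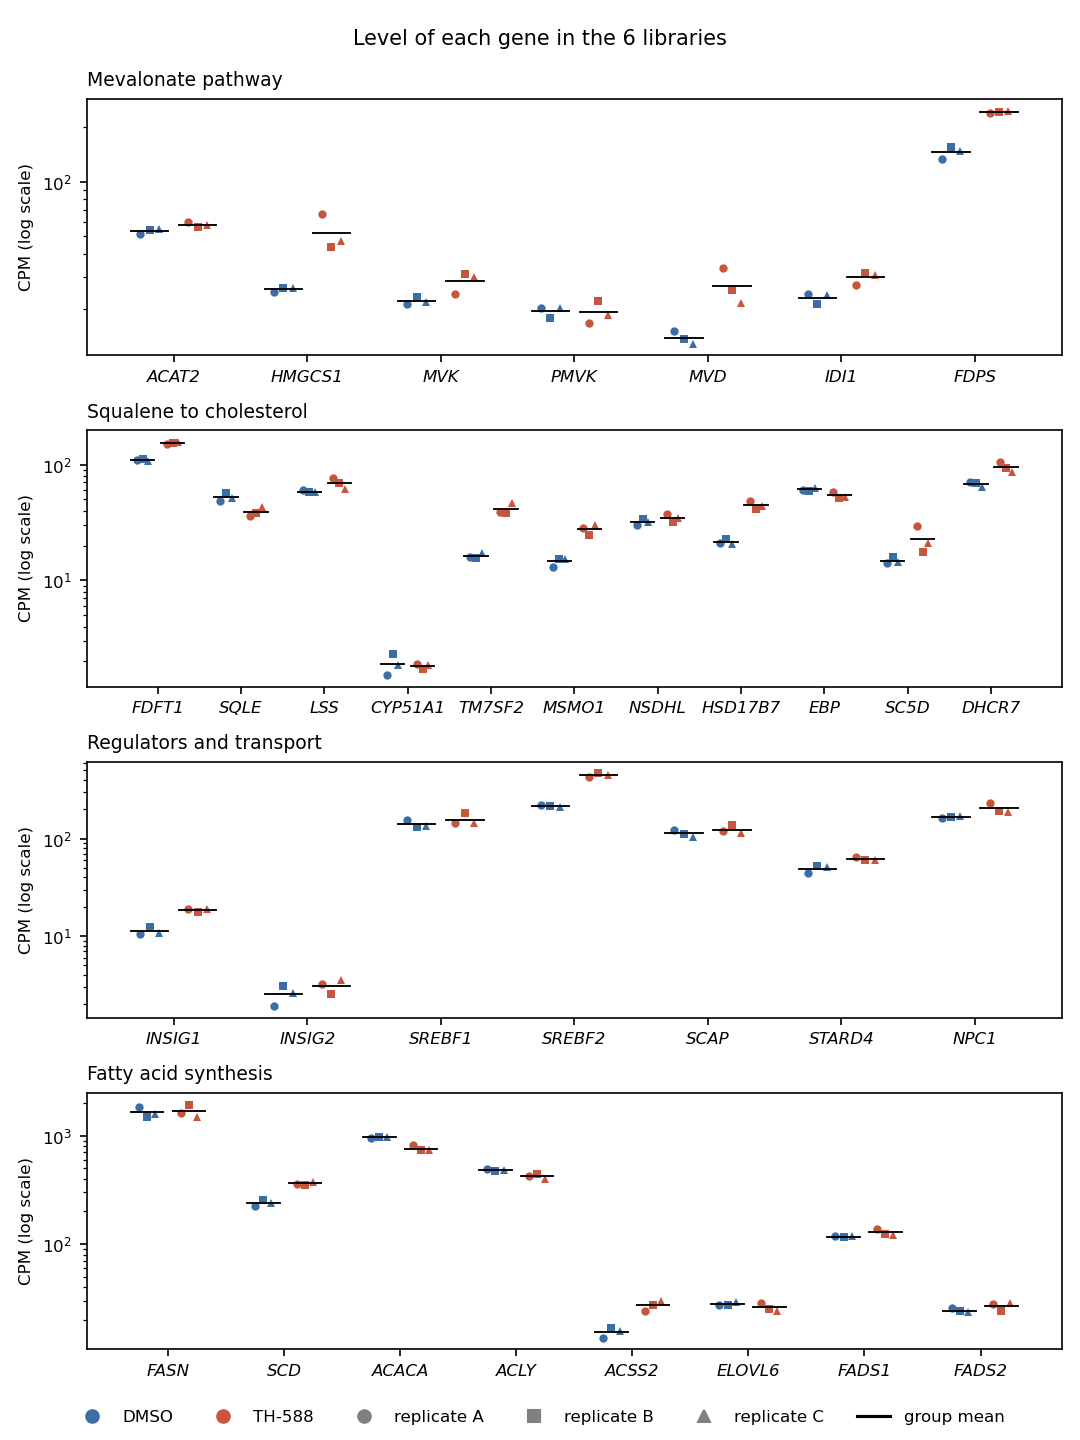
CPM of each of the 33 genes (y axis, log scale) in the 3 DMSO and 3 TH-588 libraries, in panels by role, with the group mean as a bar. For SREBF2 the TH-588 points sit between 430.1 and 466.4 CPM and the DMSO points between 208.4 and 220.6 CPM, whereas for FASN the points of both groups are mixed.

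The start regions of the 4 members that were more than 2-fold higher are shown because SREBPs are known to act close to transcription starts, together with NF-Y, a factor that binds CCAAT. Each window is RefSeq sequence of GRCh38.p14 from 250 bases before to 50 bases after an annotated start, printed along the strand of the gene, and capitals mark matches to CCAAT on either strand (ATTGG when it lies on the other strand) and to the sterol regulatory element TCACNCCAC. SREBF2 is chr22:41832855-41833154 (plus strand), TM7SF2 is chr11:65111622-65111921 (plus strand), HSD17B7 is chr1:162790452-162790751 (plus strand) and HMGCS1 is chr5:43313363-43313662 (minus strand, the one of its windows nearest to the end of the gene in the count table).
SREBF2: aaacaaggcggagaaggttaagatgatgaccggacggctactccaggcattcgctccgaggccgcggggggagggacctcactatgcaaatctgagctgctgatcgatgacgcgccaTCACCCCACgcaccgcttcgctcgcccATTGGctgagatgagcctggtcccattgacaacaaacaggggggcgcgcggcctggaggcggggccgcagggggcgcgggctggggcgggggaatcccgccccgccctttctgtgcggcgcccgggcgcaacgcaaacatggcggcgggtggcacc
TM7SF2: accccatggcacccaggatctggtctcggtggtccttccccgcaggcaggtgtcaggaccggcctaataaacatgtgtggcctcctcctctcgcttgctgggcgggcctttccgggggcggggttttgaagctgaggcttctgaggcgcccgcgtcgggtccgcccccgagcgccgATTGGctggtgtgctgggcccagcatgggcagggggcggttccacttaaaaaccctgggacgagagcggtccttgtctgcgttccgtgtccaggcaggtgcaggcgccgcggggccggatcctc
HSD17B7: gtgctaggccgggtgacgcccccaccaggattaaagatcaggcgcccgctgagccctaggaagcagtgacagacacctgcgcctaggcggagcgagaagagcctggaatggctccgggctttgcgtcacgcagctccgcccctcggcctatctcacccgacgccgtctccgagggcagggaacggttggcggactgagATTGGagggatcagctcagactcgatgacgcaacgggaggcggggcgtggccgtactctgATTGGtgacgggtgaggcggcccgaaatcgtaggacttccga
HMGCS1: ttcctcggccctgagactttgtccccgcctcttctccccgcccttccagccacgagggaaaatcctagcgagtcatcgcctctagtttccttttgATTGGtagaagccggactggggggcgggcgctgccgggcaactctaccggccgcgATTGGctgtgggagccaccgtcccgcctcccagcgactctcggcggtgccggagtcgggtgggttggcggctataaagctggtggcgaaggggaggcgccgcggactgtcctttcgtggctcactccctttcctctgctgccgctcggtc
The SREBF2 window held the only match to TCACNCCAC among the 29 members with a window, starting at position -133 from the start. It also held a CCAAT match on the other strand at position -106. CCAAT matches began at -74 in TM7SF2, at -52 and 9 in HSD17B7, and at -155 and -100 in HMGCS1, all on the other strand. The plain match to TCACNCCAC is strict, and no match says only that these letters are not in the window.

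A RefSeq window was matched for 29 of the 33 members, that is all but ACAT2, FDFT1, SQLE and FASN. At least 1 window held CCAAT on either strand in 21 of these 29 members (72.4%), against 42.9% of the 11124 tested genes with a window and 44.0% of the 2862 tested genes that were higher after TH-588. Among members, CCAAT was present in 16 of the 17 that rose (all but NPC1) and in 5 of the other 12. TCACNCCAC was present in 1 of 29 members (3.45%) and 1.45% of tested genes. The GC box GGGCGG, the site of SP1, was present in 28 of 29 members (96.6%) and 75.0% of tested genes, and the E-box CACGTG in 4 of 29 (13.8%) and 12.3%. These shares are descriptions of sequence and not measured binding.

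Among the 7 mevalonate pathway enzymes, 5 rose (71.4%) and none fell, against 24.2% higher and 25.3% lower of all genes tested. The median log2 fold change of these enzymes was 0.38. Their summed level was 290.3 to 311.1 CPM in DMSO libraries and 450.4 to 466.5 CPM in TH-588 libraries, with no overlap. Most of this rise was FDPS, with means of 145.2 CPM in DMSO and 241.2 CPM in TH-588. HMGCS1 (ENSG00000112972, chr5:43289395-43313512), which condenses acetoacetyl-CoA and acetyl-CoA ahead of mevalonate, read 24.6, 26.1 and 26.2 CPM in DMSO and 66.2, 44.0 and 46.9 CPM in TH-588. Its start region is the last of those printed above. All TH-588 libraries were higher, with TH-588 replicate A standing above the other two. The means were 25.6 ± 0.881 and 52.4 ± 12.1 CPM (SD, 3 libraries each), and the log2 fold change of 1.02 (SE 0.13, edgeR adjusted p = 4.98e-05) was 0.837 without TH-588 replicate A.

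MVD, the decarboxylase that forms isopentenyl diphosphate, read 15.1, 13.7 and 12.9 CPM in DMSO and 33.6, 25.4 and 21.6 CPM in TH-588. The groups did not overlap, and the same TH-588 replicate A was again the highest. The log2 fold change of MVD was 0.94 (SE 0.15, edgeR adjusted p = 0.000193), and 0.767 without that library. FDPS, which makes farnesyl diphosphate at the fork between sterols and isoprenoids, read 133.5, 155.2 and 146.8 CPM in DMSO and 238.5, 240.0 and 245.3 CPM in TH-588. Here the 3 TH-588 libraries were close to each other and far above DMSO (log2 fold change 0.73, SE 0.08, edgeR adjusted p = 1.27e-05). IDI1, the isopentenyl diphosphate isomerase, read 24.2, 21.2 and 23.8 CPM in DMSO and 27.2, 31.7 and 30.9 CPM in TH-588. Its rise was smaller but without overlap (log2 fold change 0.38, SE 0.09, edgeR adjusted p = 0.00553).

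The other 3 mevalonate enzymes had smaller log2 fold changes. MVK, mevalonate kinase, rose from 22.1 ± 0.940 to 28.4 ± 3.80 CPM, with a log2 fold change of 0.37 (SE 0.11, edgeR adjusted p = 0.0118). PMVK, the next kinase, was at 19.4 ± 1.41 and 19.1 ± 2.74 CPM, and ACAT2, the thiolase that opens the pathway, was at 53.3 ± 1.76 and 58.0 ± 2.02 CPM. Neither passed the test, with log2 fold changes of -0.01 (95% interval -0.24 to 0.22) and 0.12 (95% interval -0.03 to 0.27).

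In the sterol branch, from squalene to cholesterol, 7 of 11 enzymes rose (63.6%) and 1 fell (9.09%), against 24.2% and 25.3% of all genes tested. The median log2 fold change of the branch was 0.48. The summed level was 443.2 to 460.4 CPM in DMSO libraries and 560.4 to 607.8 CPM in TH-588 libraries. TM7SF2 (ENSG00000149809, chr11:65111845-65116384), a sterol reductase that acts after lanosterol demethylation, had the largest fold change of the 33 members. It read 15.9, 15.5 and 17.2 CPM in DMSO and 38.7, 37.9 and 46.2 CPM in TH-588. Every TH-588 library lay above every DMSO library by more than the spread within either group, and the log2 fold change was 1.34 (SE 0.10, edgeR adjusted p = 5.93e-07).

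HSD17B7 (ENSG00000132196, chr1:162790702-162812817), the ketosteroid reductase that completes removal of the lanosterol methyl groups, read 21.1, 22.8 and 20.5 CPM in DMSO and 48.9, 41.3 and 43.8 CPM in TH-588. The groups were far apart (log2 fold change 1.05, SE 0.09, edgeR adjusted p = 1.97e-06). MSMO1, the methyl sterol monooxygenase that begins the same demethylation, read 13.0, 15.5 and 15.4 CPM in DMSO and 28.3, 24.9 and 30.1 CPM in TH-588. It too showed no overlap (log2 fold change 0.92, SE 0.11, edgeR adjusted p = 2.42e-05). SC5D, the sterol desaturase of the last steps, read 14.2, 15.8 and 14.4 CPM in DMSO and 29.6, 17.7 and 21.2 CPM in TH-588. TH-588 replicate A was the highest by a wide margin, and the log2 fold change of 0.62 (SE 0.16, edgeR adjusted p = 0.00622) was 0.408 without it, still past the threshold (adjusted p = 0.00997).

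Smaller rises were seen at both ends of the branch. FDFT1, squalene synthase, the first enzyme committed to sterols, rose from 109.2 ± 3.23 to 152.8 ± 3.88 CPM (log2 fold change 0.48, SE 0.07, edgeR adjusted p = 0.000163). DHCR7, which reduces the last double bond to give cholesterol, rose from 67.7 ± 3.80 to 94.7 ± 8.84 CPM (log2 fold change 0.48, SE 0.09, edgeR adjusted p = 0.000675). LSS, lanosterol synthase, rose from 58.3 ± 1.38 to 68.9 ± 7.36 CPM (log2 fold change 0.24, SE 0.09, edgeR adjusted p = 0.0412). The LSS call was the least stable of the 20, since it was lost without any 1 of 5 of the 6 libraries, the exception being TH-588 replicate C, with log2 fold changes of 0.174 to 0.335 over the 6 omissions.

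SQLE and CYP51A1 are given per library although the rule for named genes did not select them, and they were chosen after their values were seen. SQLE, squalene monooxygenase, a rate-limiting step that follows FDFT1, read 48.9, 56.4 and 51.8 CPM in DMSO and 35.7, 38.4 and 42.8 CPM in TH-588. All TH-588 libraries were lower, opposite in direction to FDFT1 and LSS on either side of it in the pathway. SQLE fell by 0.42 on the log2 scale (SE 0.09, edgeR adjusted p = 0.00222), and with library totals not adjusted by TMM the value was -0.314 and no longer passed (adjusted p = 0.0565). CYP51A1, the lanosterol demethylase, read 1.53, 2.32 and 1.88 CPM in DMSO and 1.91, 1.74 and 1.88 CPM in TH-588. These groups overlapped (log2 fold change -0.06, 95% interval -0.45 to 0.34), and at 0.469 ± 0.0961 RPKM in DMSO it had the lowest level per length of the 33 members over all its exon bases. Most of those bases are shared with another gene, so this rank depends on how reads in shared bases were counted. In the same branch NSDHL, a sterol dehydrogenase, was at 31.8 ± 1.76 and 34.5 ± 2.62 CPM, and EBP, a sterol isomerase, at 61.0 ± 1.90 and 54.2 ± 3.32 CPM. EBP had no overlap between groups, with a log2 fold change of -0.17 (95% interval -0.33 to -0.02), but did not pass the test (edgeR adjusted p = 0.0877) except without TH-588 replicate A (-0.212, adjusted p = 0.0272).

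Of the 8 lipogenic enzymes, 2 rose (25%) and 1 fell (12.5%), against 24.2% and 25.3% of all genes tested. The median log2 fold change was 0.08, and the summed levels overlapped, at 3365 to 3714 CPM in DMSO and 3211 to 3671 CPM in TH-588. FASN, which assembles palmitate from malonyl-CoA, read 1854, 1482 and 1595 CPM in DMSO and 1634, 1936 and 1496 CPM in TH-588. The groups were intermingled (log2 fold change 0.04, 95% interval -0.18 to 0.26, edgeR adjusted p = 0.796). Per length FASN was the highest member in both groups, at 175.5 ± 20.4 RPKM in DMSO and 180.4 ± 24.1 RPKM in TH-588.

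ACACA (ENSG00000278540, chr17:37084988-37406818), the carboxylase that makes malonyl-CoA, read 958.7, 974.1 and 963.1 CPM in DMSO and 818.4, 736.5 and 731.2 CPM in TH-588. All 3 TH-588 libraries were lower, and ACACA fell by 0.34 on the log2 scale (SE 0.08, edgeR adjusted p = 0.00307). ACLY, which releases acetyl-CoA from citrate, read 492.1, 471.0 and 487.5 CPM in DMSO and 427.4, 443.4 and 399.9 CPM in TH-588. ACLY was also lower in each TH-588 library, but its log2 fold change of -0.19 (95% interval -0.34 to -0.04) missed the threshold (edgeR adjusted p = 0.0545). It was called by limma-voom (adjusted p = 0.0349) and without TH-588 replicate B (adjusted p = 0.0401).

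SCD (ENSG00000099194, chr10:100347124-100364834), which introduces the double bond of oleate and palmitoleate, read 224.3, 253.7 and 239.5 CPM in DMSO and 360.6, 354.2 and 378.0 CPM in TH-588. The TH-588 values were all above the DMSO values (log2 fold change 0.61, SE 0.08, edgeR adjusted p = 4.87e-05). ACSS2, which makes acetyl-CoA from acetate, read 13.7, 16.8 and 15.7 CPM in DMSO and 23.9, 27.7 and 30.2 CPM in TH-588. It had the largest rise of the lipogenic enzymes (log2 fold change 0.83, SE 0.11, edgeR adjusted p = 7.65e-05), from a level per length of 2.86 ± 0.287 RPKM that was low beside 92.7 ± 2.13 RPKM for ACLY. The elongase ELOVL6 and the desaturases FADS1 and FADS2 for polyunsaturated fatty acids did not pass the test, with log2 fold changes of -0.11, 0.13 and 0.13. Their intervals were -0.29 to 0.07, -0.02 to 0.28 and -0.05 to 0.32.

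Per length, the order of the members in DMSO was led by FASN, ACLY (92.7 RPKM), ACACA (74.2 ± 0.611 RPKM), SCD (44.6 ± 2.74 RPKM) and FDPS (39.0 ± 2.95 RPKM). After TH-588, ACLY stayed second at 81.2 ± 4.22 RPKM, and the next were SCD (67.9 ± 2.29 RPKM), FDPS (64.9 ± 0.957 RPKM), SREBF2 (59.5 ± 2.43 RPKM) and ACACA (58.6 ± 3.76 RPKM). SREBF2 and ACACA differed there by less than the spread of ACACA.

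Ratios within a library do not depend on library size, so 5 pairs of related members were compared by RPKM ratio. The pairs were chosen with the results of their members known, and the ratios restate the single-gene values within each library, so they are given with no test. The SREBF1 to SREBF2 ratio was 0.663, 0.586 and 0.604 in DMSO and 0.314, 0.365 and 0.300 in TH-588. The groups did not overlap, and the mean went from 0.618 ± 0.0404 to 0.327 ± 0.0343 (SD, n = 3 each). The HMGCS1 to SQLE ratio was 0.461, 0.425 and 0.462 in DMSO and 1.70, 1.05 and 1.003 in TH-588, so that HMGCS1 lay below SQLE per length in every DMSO library and level with or above it in every TH-588 library. The SCD to FASN ratio was 0.211, 0.299 and 0.262 in DMSO and 0.385, 0.319 and 0.441 in TH-588, again with no overlap. The INSIG1 to INSIG2 ratio was 4.96 ± 0.921 in DMSO and 6.60 ± 0.924 in TH-588 with overlapping groups, and the FADS1 to FADS2 ratio was 5.19 ± 0.194 and 5.19 ± 0.494.

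**Figure D3:**
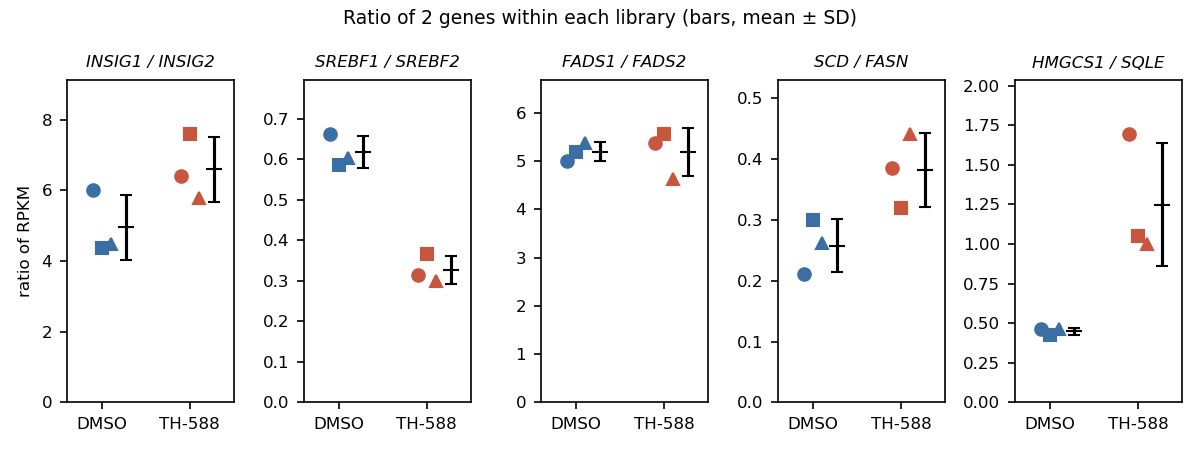
Ratio of RPKM (y axis, no unit) within each library for 5 pairs of members, with points for the 3 DMSO and 3 TH-588 libraries and the mean ± SD beside them. The SREBF1 to SREBF2 ratio lies at 0.586 to 0.663 in DMSO and 0.300 to 0.365 in TH-588, and the FADS1 to FADS2 ratio has the same mean in both groups.

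Some counts are uncertain because exons are shared. The library kit did not mark strand, so a read in bases shared by 2 genes cannot be assigned to one of them, whichever strand they lie on. More than 10% of exon bases were shared with another gene for 5 members: CYP51A1 (82.2%), ACAT2 (52.3%), FDPS (18.6%), HMGCS1 (15.0%) and IDI1 (14.8%). CYP51A1 shared 78.8% of its exon bases with LRRD1, which held 12 counts over the 6 libraries against 890 for CYP51A1, so the level of CYP51A1 is uncertain. FADS1 and FADS2 shared 490 exon bases with each other. Among pseudogene copies, HSD17B7P2 held 1194 counts, which is 7.96% of the 14997 counts of HSD17B7, and CYP51A1P2 held 4.72% of the CYP51A1 count. The FDPS, IDI1 and SCD copies each held under 1% of the count of their parent gene.

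Further lists of lipid genes were counted in the same way, and each count stands beside 24.2% higher and 25.3% lower over all genes tested. Of 12 tested genes in the list of oxysterol receptors and their targets, 7 rose (58.3%) and none fell, and the median log2 fold change was 0.52. The targets in it respond to sterol excess through the liver X receptors, and of these MYLIP was not called. The list also holds the receptors themselves, of which NR1H3 and RXRB rose and NR1H2 and RXRA were not called. It further holds the enzymes CYP27A1 and CYP46A1, which were not called. ABCA1, the cholesterol efflux pump, read 39.8, 39.8 and 37.1 CPM in DMSO and 130.7, 136.6 and 135.2 CPM in TH-588. This rise had no overlap and was larger than that of any of the 33 members (log2 fold change 1.79, SE 0.08, edgeR adjusted p = 1.62e-08). ABCG1, another efflux pump, rose from 2.75 ± 0.542 to 6.70 ± 0.488 CPM (log2 fold change 1.29, SE 0.16, edgeR adjusted p = 3.08e-05).

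In the isoprenoid branch that leaves the pathway at FDPS, 2 of 12 genes rose (16.7%) and 5 fell (41.7%). With library totals not adjusted 2 rose and 3 fell, and without TH-588 replicate A 2 rose and 8 fell. The 2 rises became 1 without DMSO replicate A, DMSO replicate C or TH-588 replicate C. RABGGTA, a subunit of the transferase that attaches geranylgeranyl groups to Rab proteins, had a log2 fold change of 1.41 (SE 0.10). PDSS1 and COQ2, which act in the synthesis of coenzyme Q, fell by 1.26 and 0.69 on the log2 scale. Of 12 partners in SREBP processing and degradation, 4 rose (33.3%) and 1 fell (8.33%), but without TH-588 replicate A 3 rose and 4 fell. FBXW7, the ubiquitin ligase subunit that marks nuclear SREBPs, had a log2 fold change of 0.69, SYVN1, a ligase of the endoplasmic reticulum, 0.50, and ERLIN1 fell by 0.88. Of 14 tested genes for cholesterol uptake, transport and esterification, 7 rose (50%) and 4 fell (28.6%), or 7 and 2 with unadjusted totals and 6 and 2 without DMSO replicate A. NPC2, which passes cholesterol to NPC1, had a log2 fold change of 0.91 and the sterol carrier OSBPL2 0.84, whereas VLDLR, a lipoprotein receptor, and OSBPL5 fell by 1.03 and 0.55.

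On the fatty acid side, 3 of 21 tested genes of elongation, desaturation and activation rose (14.3%) and 6 fell (28.6%), or 4 and 4 with unadjusted totals. The 3 rises became 1 without DMSO replicate A or B or TH-588 replicate B or C. HSD17B12 and HACD2 act in the same elongation cycle and moved apart, with log2 fold changes of 0.996 and -0.82. ACACB, the mitochondrial relative of ACACA, had a log2 fold change of 0.23, and MCAT, of mitochondrial fatty acid synthesis, fell by 0.74. In glycerolipid synthesis 4 of 16 rose and 4 fell (25% each), which is close to the shares over all genes tested. LPIN1 and LPIN3, phosphatidate phosphatases, had log2 fold changes of 1.07 and 1.10, while PTDSS1, a phosphatidylserine synthase, and GPAM, the first acyltransferase, fell by 0.94 and 0.76. In fatty acid oxidation 11 of 22 rose (50%) and 2 fell (9.09%), and the 2 falls became 1 without DMSO replicate A, DMSO replicate C or TH-588 replicate C. CPT1C, a carnitine palmitoyltransferase relative, and the electron carrier ETFDH had log2 fold changes of 0.94 and 0.80, and HADH and ECHS1 of the oxidation spiral fell by 0.84 and 0.30. The named genes of these lists were all past the threshold (largest edgeR adjusted p 0.0472, for ACACB). Of these, 5 shared more than 10% of their exon bases with other genes, namely HSD17B12 (21.6%), ETFDH (13.8%), LPIN3 (13.5%), PDSS1 (10.5%) and SYVN1 (10.1%), and their counts are uncertain to that extent.

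**Figure D4:**
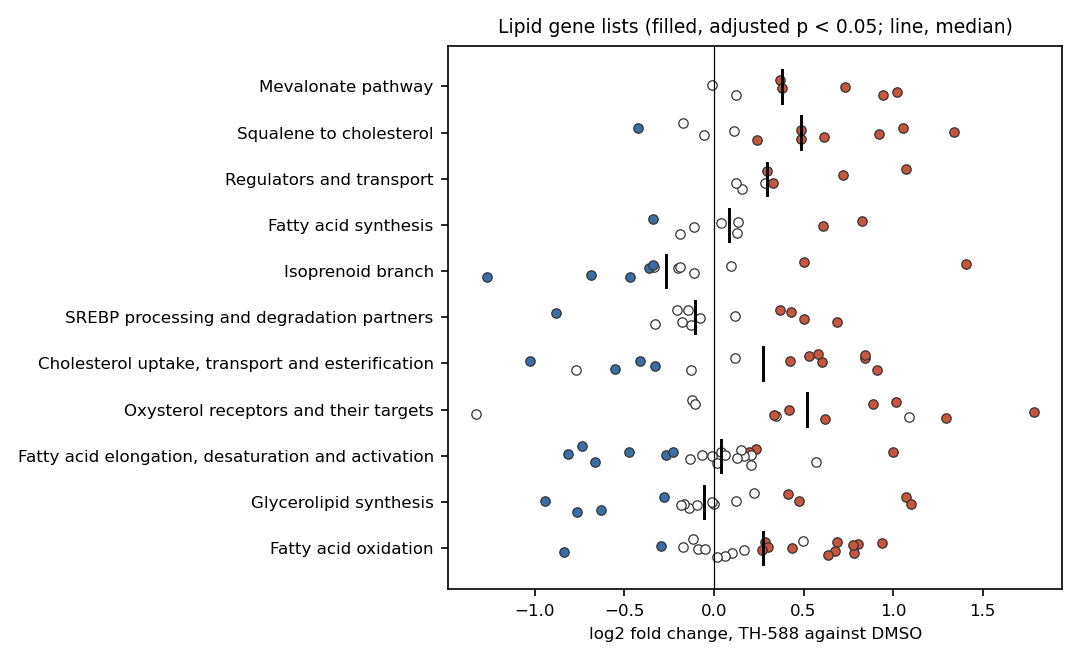
Log2 fold change of each tested gene (x axis, TH-588 against DMSO) in the 4 groups of members and 7 further lipid lists (rows). Filled points are genes called at an adjusted p under 0.05, open points are the rest, and a line marks the median. Medians run from -0.27 in the isoprenoid branch to 0.52 for oxysterol receptors and their targets, and the lipogenic members sit at 0.08.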

How the data were processed

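RNA was sequenced from 3 DMSO and 3 TH-588 cultures of A2780, each group from independent experiments. The authors aligned the reads to GRCh38 with TopHat, counted them per Ensembl gene with featureCounts 1.4.6 of Subread and deposited raw counts, which are not normalised. How multi-mapping reads and strand were treated is not given in the sources used here. Table columns were matched to samples by the library names in the labels, and no per-sample column was left unused. Symbols were given for 57754 of the 58336 genes.

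Counts were tested with edgeR 4.0.16 in R 4.3.3 (TMM, default filter on low counts, quasi-likelihood test, Benjamini-Hochberg adjustment over 15844 genes, threshold 0.05), a choice made in place of the DESeq2 test of the study, which was run as an alternative (1.42.0). Each standard error was taken as |log2 fold change| over the root of the F statistic. The 95% intervals follow from it with the multiplier of a normal distribution. With so few libraries they are somewhat too narrow, and the calls do not rest on them. The code was tested on simulated data. The members and gene lists were chosen with earlier results of these data known, so no list was tested as a set. Values per library were given for up to 4 members per role with the largest change among those called, with groups that did not overlap and an average log2 CPM of 2 or more, and for SREBF1, SREBF2, SCAP, INSIG1 and INSIG2. SQLE, CYP51A1, FASN and ACLY were given per library outside this rule. In further lists the rule took the 2 largest rises and 2 largest falls. TPM sums were computed and not compared, because SNORD3A alone had 329900 ± 26500 TPM in DMSO and 446600 ± 92430 TPM in TH-588. Alternatives were DESeq2's size factors, unadjusted library totals, DESeq2, limma-voom (limma 3.58.1), an unfiltered table, a minimum of 10 counts per library, the 10 most abundant genes left out, each library left out, the replicate letter as a block, and an adjusted p under 0.01. Exon overlap came from the coordinates in the count table, and start regions from RefSeq windows of 250 bases before to 50 bases after a start.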

Additional observations from a re-analysis of the deposited data

How the results depend on the processing

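INSIG2 and CYP51A1 had the fewest counts of the members, and all p-values rest on 3 cultures of 1 line per group. The number of members called was 17 to 21 under every alternative, and of the log2 fold changes of single members under each alternative, 470 kept their direction and their side of the threshold, 11 lost a call, 3 gained one and 11 changed sign, all of these in PMVK, CYP51A1 and FASN, which were not called. Without adjustment of library totals, 7034 genes were called in place of 7852, 60.4% of them higher in place of 48.9%, and the median of all genes moved from 0.0185 to 0.126. That setting moved the median log2 fold change of the mevalonate members from 0.377 to 0.486, of the sterol members from 0.483 to 0.579 and of the lipogenic members from 0.0842 to 0.185. Leaving out single libraries gave 6805 to 7914 called genes and medians of 0.334 to 0.480 for mevalonate, with the highest value without TH-588 replicate A, and of 0.0406 to 0.156 for lipogenic members, with the highest value without DMSO replicate A. In fatty acid elongation, desaturation and activation, 9 genes were called with all libraries, 5 to 8 with 1 library left out, and 5 without DMSO replicate A. PMVK changed sign to 0.0992 with unadjusted totals, 0.0106 with limma-voom and 0.0104 with at least 10 counts in every library, and ran from -0.134 to 0.0792 with 1 library left out. CYP51A1 changed sign to 0.0564 with unadjusted totals and ran from -0.171 to 0.0987, and FASN from -0.0714 to 0.154, with 1 library left out. Why these values moved was not tested beyond the settings named.

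Libraries with the same replicate letter did not deviate together (r of -0.071 for A, -0.083 for B and 0.00082 for C, over genes). Each r comes from a single pair of libraries, so whether the letters pair the cultures cannot be decided from it. With the letter as a replicate block, 7195 genes were called, 7129 of them shared with the fit without it, and 19 members. LSS lost its call there (0.235, edgeR adjusted p = 0.0717).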
